A study of Gossypium hirsutum with 89 samples.

Results

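The fibre of 1 upland cotton line, JKC 725, was followed through 5 days of its development on Affymetrix Cotton Genome arrays. The 15 arrays were those titled for JKC 725 at 6, 9, 12, 19 and 25 days post anthesis (dpa), with 3 replicates on each day, out of 89 arrays in all. All 5 lines of the series are Gossypium hirsutum, grown in the field, with flowers tagged at anthesis. The labels class JKC 725 and JKC 777 as having better fibre traits and place JKC 703, 737 and 783 in the poorer class. JKC 725 at 0 dpa was whole ovule, not fibre, and was left out; from 6 dpa on, the fibre alone was taken. By the labels, every group compared here was untreated, and only line and day set the groups apart. The design text calls the replicates biological, but no label says that they came from separate plants or harvests, so the p-values measure only the spread between these samples.

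A cotton fibre is a single cell that grows out of the seed coat epidermis. It first elongates, while its thin primary wall is loosened by expansins and remade from pectin and xyloglucan, and while very long chain fatty acids are made for its membranes and cuticle. It later lays down a thick secondary wall of nearly pure cellulose, made at the plasma membrane by cellulose synthase complexes that draw on sugar released by sucrose synthase. Fasciclin-like arabinogalactan proteins (FLA) are cell surface glycoproteins, some of which accompany secondary walls in other plants. NAC factors of the NST and SND type switch on secondary wall genes in Arabidopsis. The comparisons ask which of these genes changed between one sampled day and the next, and over the whole course between 6 and 25 dpa.

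Values are array signals on a linear scale, scaled by the authors, and the number of arrays limits their precision. The median signal of the 15 arrays ranged between 67.5 and 110. As a check of the labelled tissue, 7 fibre marker probe sets (among them E6, the annexin AnnGh1 and the lipid transfer protein LTP3) summed to signals of 42050 to 52360 at 25 dpa and 45660 to 54200 at 6 dpa. The lowest of the 7 at 6 dpa was myb109, at 690 to 887, and it was at 0.583 to 15.1 at 25 dpa. By the threshold defined below, 3 of the 7 were lower at 25 dpa and 1, H6L, was higher. The other lower sets were EXPA1, at 188 to 544 at 25 dpa, and 1 of 2 LTP3 sets, at 34.9 to 70.4. E6 was at 4791 to 7127 at 25 dpa and 9168 to 10610 at 6 dpa. Of 6 seed and embryo probe sets, 3 storage protein sets were near 0 at 6 dpa, with signals of 0.736 to 18.9. On 25 dpa replicate 3 these sets were at 26.0, 0.668 and 0.462. A further storage protein set, of the legumin LegB-C134, was at 273 to 360 at 6 dpa and 51.3 to 64.3 at 25 dpa. Lea14-A was at 595 to 771 at 6 dpa and 46.9 to 122 at 25 dpa. All 6 summed to 7705 to 17070 at 25 dpa and 2273 to 3992 at 6 dpa. Most of the sum came from Lea5-D, at 14050, 10290 and 7572 at 25 dpa and 3014, 2484 and 1279 at 6 dpa. Both histone probe sets that stand for dividing cells summed to 8133 to 9662 at 25 dpa and 7094 to 9237 at 6 dpa. Photosynthetic tissue markers could not be looked up, since no probe set with a readable name fell in that list.

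The replicates of a day resembled each other more than those of other days, with 1 exception. The mean correlation of log2 signals within a day was 0.977 at 6 dpa, 0.971 at 9 dpa, 0.969 at 19 dpa and 0.962 at 25 dpa. At 12 dpa, replicate 2 stood apart: its mean correlation was 0.90 with the other 12 dpa arrays and 0.926 with the 9 dpa arrays, while the other 12 dpa arrays correlated at 0.982 with each other. Its spike-in control bioB read 539, against a lowest value of 124 among the 12 dpa arrays, and its ratio of 3′ to 5′ actin signal was 5.01, the highest of that day. Counts and named changes that involve 12 dpa are therefore given with and without it. The 3′ to 5′ actin ratio, a measure of RNA integrity, was 8.23 to 9.09 at 25 dpa and 2.84 to 3.56 at 6 dpa. It was 4.46 to 9.12 at 19 dpa and 2.89 to 5.01 at 12 dpa, and the same ratio for ubiquitin was 3.75 to 7.84 at 19 dpa and 2.09 to 5.19 at 12 dpa, so RNA integrity also moved with the step that has the most calls. Its part in the differences between these days was not tested. The ratio of the spike-ins bioC and bioB was 0.935 to 1.01 at 9 dpa and 0.99 to 1.06 at 25 dpa, against 2.63 to 3.12 over the 6, 12 and 19 dpa arrays; its part in steps that involve 9 or 25 dpa was not tested.

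**Figure D1:**
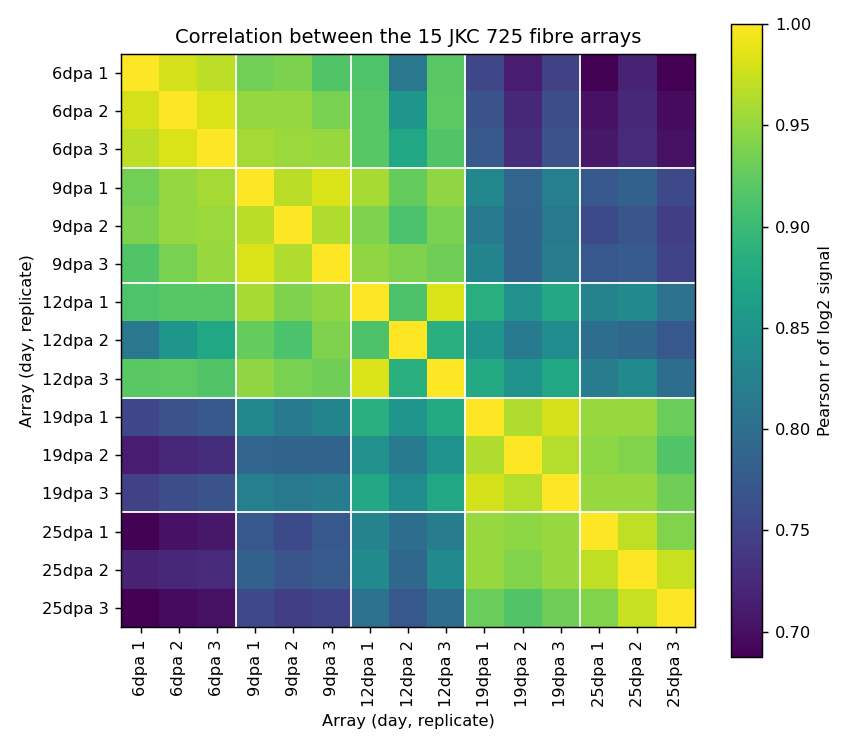
Pearson correlation of log2 signals between each pair of the 15 JKC 725 fibre arrays, in order of day and replicate, with the colour scale giving r. Arrays of 1 day form bright blocks except 12 dpa replicate 2, which correlated at 0.926 on average with the 9 dpa arrays and at 0.90 with its own day.

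Of 17003 probe sets tested, 8440 (49.6%) varied over the 5 days. These had an adjusted p under 0.05 in limma's F test and day means that ranged over at least 1 on the log2 scale. A probe set was called in a comparison when its Benjamini-Hochberg adjusted p was under 0.05 and its change at least 1 on the log2 scale, a doubling. Between 25 and 6 dpa, 7453 probe sets were called (43.8%), 4100 higher at 25 dpa (24.1%) and 3353 lower (19.7%). The step with the most calls was 19 versus 12 dpa, with 3125 (18.4%), of which 1631 were higher and 1494 lower at 19 dpa. It is also the longest interval. The last step, 25 versus 19 dpa, gave 793 calls (4.66%), 212 higher and 581 lower. The earlier steps gave 933 calls at 9 versus 6 dpa (5.49%; 682 higher, 251 lower) and 366 at 12 versus 9 dpa (2.15%; 235 higher, 131 lower).

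The smaller step counts depended on single arrays. For 9 versus 6 dpa the count was 450 without 9 dpa replicate 3, 605 without 9 dpa replicate 1, 486 without 6 dpa replicate 2, 553 without 6 dpa replicate 1 and 1686 without 12 dpa replicate 2. For 12 versus 9 dpa it was 220 without 12 dpa replicate 1 and 713 without 12 dpa replicate 2, and for 19 versus 12 dpa it was 3913 without that last array. For 25 versus 19 dpa it was 510 to 523 without 19 dpa replicate 3, 25 dpa replicate 2 or 25 dpa replicate 3. Centring each array on its median moved the split between directions to 481 higher and 404 lower for 9 versus 6 dpa, and to 329 higher and 342 lower for 25 versus 19 dpa, where quantile normalization gave 320 higher and 463 lower. The median change over all tested probe sets for 25 versus 6 dpa was 0.08 on the log2 scale, and -0.07 after median centring.

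**Figure D2:**
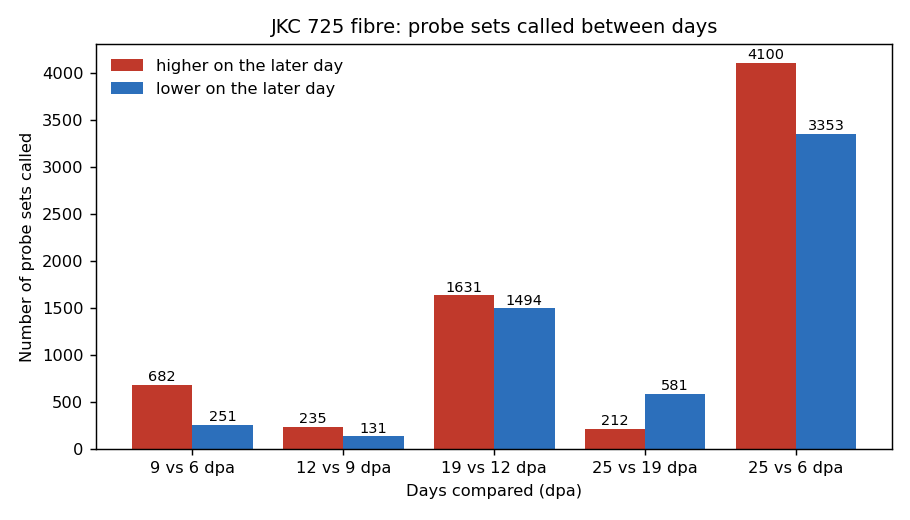
Number of probe sets called higher (red) or lower (blue) on the later day in each comparison of JKC 725 days, out of 17003 tested. The step of 19 versus 12 dpa holds 1631 higher and 1494 lower, and 25 versus 6 dpa holds 4100 higher and 3353 lower.

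The step of 19 versus 12 dpa was the largest for the most probe sets in both directions. Of the 4100 probe sets higher at 25 than at 6 dpa, 1947 (47.5%) had their largest step in that direction at 19 versus 12 dpa and 1368 (33.4%) at 9 versus 6 dpa. Of the 3353 lower at 25 dpa, 1848 (55.1%) had theirs at 19 versus 12 dpa, 728 (21.7%) at 25 versus 19 dpa and 574 (17.1%) at 9 versus 6 dpa. Among the 8440 probe sets that varied, the day of the highest mean was 6 dpa for 2533, 9 dpa for 789, 12 dpa for 704, 19 dpa for 1982 and 25 dpa for 2432. These shares follow from the same fit and are a description only.

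Only a small part of the array could be named. The annotation paired 743 probe sets with genes, 697 of them with 1 gene, and 289 tested probe sets of 229 genes (1.7% of those tested) had a readable name. Of these 289, 77 were called higher and 79 lower at 25 than at 6 dpa, against 24.1% and 19.7% over all tested, and the genes below come from among them. The same shares over all tested are the background for each list count at 25 versus 6 dpa below.

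CelA1 and CTL1, genes of the cellulose-making secondary wall, were among the largest named rises of the course. CelA1, a catalytic subunit of the cellulose synthases that build the secondary wall, had signals of 33.5, 47.3 and 36.7 at 6 dpa, 88.8, 153 and 85.0 at 9 dpa, 2594, 532 and 2660 at 12 dpa, 13790, 12350 and 12820 at 19 dpa, and 17230, 15900 and 17040 at 25 dpa. All 3 arrays of each day lay above all 3 of the day before, and the 532 at 12 dpa came from replicate 2. The rise between 6 and 25 dpa was 8.60 ± 0.45 on the log2 scale (standard error; adjusted p = 2.28e-09). CTL1, a chitinase-like protein needed for cellulose deposition, followed the same course, with 18400, 16410 and 17030 at 25 dpa, against 64.9, 92.8 and 71.2 at 6 dpa. Its rise was 7.76 ± 0.42 (adjusted p = 3.01e-09).

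A second CelA1 probe set moved the other way. It had signals of 601, 557 and 524 at 25 dpa, against 2173, 3221 and 5176 at 6 dpa, and its change was -2.55 ± 0.33 (adjusted p = 1.47e-05). The groups did not overlap. Its highest mean was on 9 dpa, when the first probe set read at most 153. Which transcript each of the pair detects was not tested, so they are kept apart, and the list of secondary wall cellulose synthases counts 1 higher and 1 lower of 2. No probe set with a readable name fell in the list of primary wall cellulose synthases.

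The sucrose synthase susC and the NAC factor nst3 rose early. susC then stayed high, while nst3 rose again between 12 and 19 dpa. susC, a sucrose synthase, had 189, 279 and 393 at 6 dpa, 2549, 1668 and 2478 at 9 dpa, 5352, 4861 and 4288 at 12 dpa, 6425, 6044 and 5842 at 19 dpa, and 6532, 6442 and 6183 at 25 dpa. Its rise to 25 dpa was 4.52 ± 0.22 (adjusted p = 1.05e-09), most of it reached by 12 dpa. Of 4 sucrose synthase probe sets, 2 were called higher at 25 dpa, with a median change of 1.87 against 0.08 over all tested. Another, Sus1, had 6698, 7024 and 6731 at 25 dpa, against 8641, 10410 and 10250 at 6 dpa, a change of -0.51 ± 0.13 that was not called and that passed the threshold only after quantile normalization, at -1.06.

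nst3, whose Arabidopsis counterpart switches on secondary wall genes, was measured by 3 probe sets that all rose. The one with the largest rise had 38.8, 49.4 and 68.5 at 6 dpa, 371, 283 and 359 at 9 dpa, 653, 528 and 393 at 12 dpa, 2370, 2102 and 1816 at 19 dpa, and 2300, 2601 and 2689 at 25 dpa. Its rise to 25 dpa was 5.51 ± 0.21 (adjusted p = 1.43e-10), and it was called in both the step to 9 dpa (2.62) and the step to 19 dpa (2.01). The other two rose by 4.83 and 4.53. Of 10 NAC probe sets, 6 were called higher at 25 dpa, against 24.1% over all tested, and 3 of these 6 were the nst3 probe sets. The median change was 1.86. Without 12 dpa replicate 2, 7 were called higher and 1 lower. NAC4 was among the 6, with 1432, 1201 and 894 at 25 dpa, against 166, 66.9 and 71.7 at 6 dpa.

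The FLA family split into members that switched on and members that faded, at different days. FLA6 had 22.9, 21.3 and 4.55 at 6 dpa, 1650, 1223 and 1157 at 9 dpa, 6297, 8489 and 6019 at 12 dpa, 10180, 10520 and 10650 at 19 dpa, and 15820, 13040 and 12890 at 25 dpa. No arrays overlapped between neighbouring days, and its rise to 25 dpa was 9.55 ± 0.32 (adjusted p = 6.72e-11). Its 6 dpa signals lay under 40.4, the mean signal a day had to reach for testing, so the size rests on the offset added before the log: it was 8.75 with a larger offset and 10.1 with none. A second FLA6 probe set rose by 9.29 ± 0.16. FLA7 stayed low until 12 dpa, with 30.6, 6.55 and 41.6 at 6 dpa, 7.56, 41.8 and 38.8 at 9 dpa, 122, 33.9 and 166 at 12 dpa, 10680, 10440 and 11370 at 19 dpa, and 15730, 16030 and 17720 at 25 dpa. Its rise to 25 dpa was 9.31 ± 0.61 (adjusted p = 1.86e-08), and 8.68 without 6 dpa replicate 2.

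FLA15 turned during the course. It had 1105, 1326 and 1163 at 6 dpa, 354, 384 and 346 at 9 dpa, 417, 203 and 365 at 12 dpa, 6216, 3461 and 6823 at 19 dpa, and 11720, 12170 and 13420 at 25 dpa. It thus fell by 1.72 to 9 dpa, and rose by 4.05 to 19 dpa and by 1.23 to 25 dpa; the last of these changes dropped to 0.93 without 19 dpa replicate 2. FLA11 faded throughout, with 66.9, 29.4 and 45.8 at 25 dpa, against 1768, 1633 and 1595 at 6 dpa, a change of -5.08 ± 0.33 (adjusted p = 1.87e-08). Of 17 FLA probe sets tested, 6 were called higher and 9 lower at 25 dpa, with a median change of -2.23. Among the 6 was FLA4, with 19730, 18060 and 19520 at 25 dpa, against 6696, 8133 and 8947 at 6 dpa, a rise of 1.28 that came to 0.52 after quantile normalization. FLA12, both FLA13 and all 3 FLA19 probe sets were among the 9 lower.

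**Figure D3:**
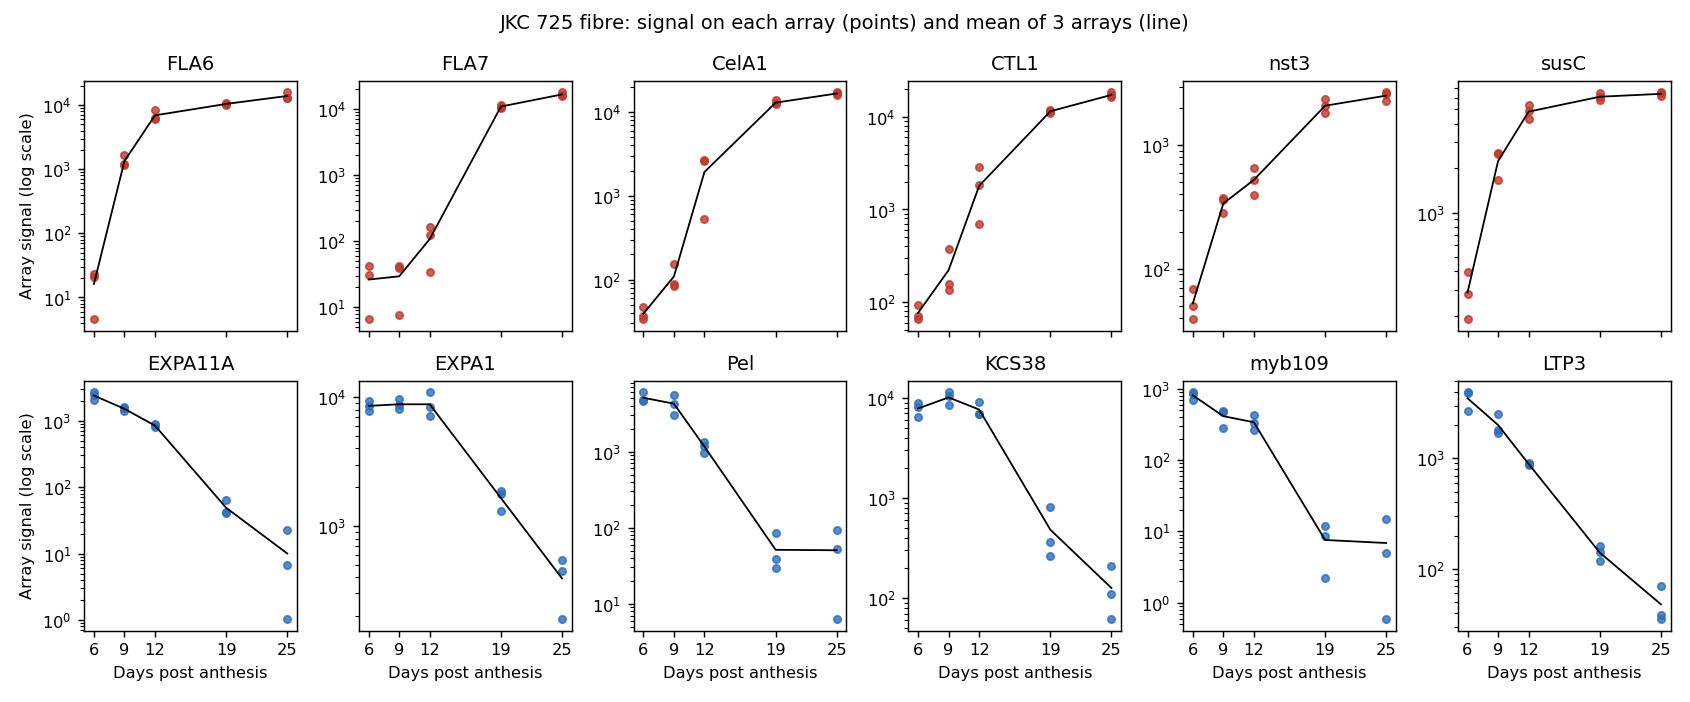
Signal on each of 3 arrays (points) and their mean (line) at 6, 9, 12, 19 and 25 dpa for 6 named genes that rose over the course (red, upper row) and 6 that fell (blue, lower row), on log axes. FLA6, nst3 and susC were called higher at 9 dpa. CelA1 and CTL1 were first called at 12 dpa, though their 9 dpa arrays already lay above those of 6 dpa. FLA7 stayed at or under 166 until 12 dpa and lay at 10440 or more from 19 dpa. The 6 falling genes dropped most between 12 and 19 dpa.

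Other named rises to 25 dpa included enzymes and small GTPases. SAMS, an S-adenosylmethionine synthetase, had 14010, 14860 and 15150 at 25 dpa, against 1579, 884 and 603 at 6 dpa, a rise of 3.95 ± 0.46 (adjusted p = 5.2e-06). GLU had 22180, 19720 and 15750 at 25 dpa, against 567, 403 and 237 at 6 dpa, a rise of 5.64 ± 0.56. Rac9, a small GTPase of the ROP type, had 307, 520 and 433 at 25 dpa, against 16.5, 19.0 and 6.70 at 6 dpa, a rise of 4.56 ± 0.35. None of these groups overlapped. KT rose by 4.69, PAP10 by 4.48, TPS1 by 3.87 and MatP7 by 3.55; TPS1 gave 3.25 without 6 dpa replicate 3.

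Some storage protein genes of the seed also rose, but unevenly between arrays. LegA-C94, a legumin, had 351, 178 and 26.0 at 25 dpa, against 18.9, 2.04 and 1.37 at 6 dpa, a rise of 3.72 ± 0.89 that was 2.97 without 25 dpa replicate 1 and 4.74 without 25 dpa replicate 3. The vicilin vicB_At had 1686, 1000 and 0.462 at 25 dpa, against 5.01, 0.958 and 16.6 at 6 dpa. One array of 25 dpa was thus as low as those of 6 dpa, and the call (4.31, adjusted p = 0.0356) was lost when any of 6 dpa replicate 1, 6 dpa replicate 2, 25 dpa replicate 1 or 25 dpa replicate 2 was left out, with adjusted p up to 0.171. Of the 6 seed and embryo probe sets, 4 were called higher and 2 lower, with a median of 3.0. The 2 lower were Lea14-A and a second probe set of the legumin LegB-C134. LegB-C134, at 800, 377 and 0.668 at 25 dpa, lost its call without 25 dpa replicate 1 or 2. These are also the markers of another tissue, seed, and its part in the fibre samples was not tested.

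Expansins, which loosen the wall, were among the largest named falls. EXPA11A, an alpha expansin, had 2026, 2472 and 2662 at 6 dpa, 1541, 1378 and 1604 at 9 dpa, 797, 880 and 852 at 12 dpa, 42.5, 40.1 and 63.6 at 19 dpa, and 22.3, 6.68 and 1.02 at 25 dpa. Each day lay below the one before on every array, and the change to 25 dpa was -7.67 ± 0.40 (adjusted p = 2.24e-09). All 3 signals at 25 dpa lay under 40.4, and the change was -6.53 with a larger offset and -8.80 with none. EXPA1, another alpha expansin, had 7879, 8557 and 9271 at 6 dpa, 8710, 8103 and 9640 at 9 dpa and 8412, 10900 and 7136 at 12 dpa. It then had 1868, 1304 and 1773 at 19 dpa, and 544, 445 and 188 at 25 dpa. Over the first 3 days its groups overlapped, and its change to 25 dpa was -4.56 ± 0.30. All 7 expansin probe sets were lower at 25 than at 6 dpa and all 7 were lower at 19 than at 12 dpa, with medians of -4.77 and -4.25; without 12 dpa replicate 2 the second count was 6, and over all alternatives either count was 5 to 7.

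Both pectin genes tested and 1 of 4 xyloglucan endotransglucosylase probe sets were lower at 25 dpa. Pel, a pectate lyase, had 4747, 4564 and 6000 at 6 dpa, 4252, 3071 and 5481 at 9 dpa, 1348, 955 and 1190 at 12 dpa, 85.7, 29.7 and 38.2 at 19 dpa, and 93.2, 52.1 and 6.22 at 25 dpa, a change of -7.03 ± 0.60 between the first and last day (adjusted p = 2.49e-07). GAE2, which makes the nucleotide sugar that pectin is built from, fell by 3.91, and most of this lay in the first step. The xyloglucan endotransglucosylase that was lower was XTH, with 235, 148 and 73.0 at 25 dpa, against 3218, 2644 and 2648 at 6 dpa, a change of -4.32 ± 0.39. An XTH1 probe set had 19050, 12560 and 5171 at 25 dpa and 8355, 10730 and 11510 at 6 dpa, groups that overlapped.

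Some genes for very long chain fatty acids and other lipids fell late. KCS38, a 3-ketoacyl-CoA synthase, which starts each round of fatty acid elongation, had 6438, 8181 and 8915 at 6 dpa, 10450, 8557 and 11360 at 9 dpa, 6954, 9165 and 6861 at 12 dpa, 814, 263 and 367 at 19 dpa, and 208, 109 and 61.1 at 25 dpa. Its change to 25 dpa was -6.06 ± 0.40 (adjusted p = 1.87e-08). KCS12 fell by 4.95 and KCS45 by 4.73. Of 7 probe sets of the list, 4 were lower and 1, KCS10, was higher, with a median of -4.41; the 2 that were not called were further KCS38 probe sets at mean signals of 61.1 and 418 at 25 dpa, so the 4 probe sets of this gene disagree. LTP3 differed in the same way: one of its probe sets had 70.4, 38.3 and 34.9 at 25 dpa, against 2671, 3889 and 3957 at 6 dpa, a change of -6.11 ± 0.24, while another had 15500, 12130 and 9890 at 25 dpa and 7421, 8905 and 8163 at 6 dpa and was not called. Probe sets with the suffixes x_at and s_at can bind several genes, including copies from both subgenomes.

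The MYB factors myb109 and GHMYB10 and the terpene gene cdn1-C4 also fell. myb109, a MYB factor of early fibre, had 690, 847 and 887 at 6 dpa, 491, 280 and 464 at 9 dpa, 332, 423 and 261 at 12 dpa, 12.0, 2.22 and 8.5 at 19 dpa, and 15.1, 0.583 and 4.91 at 25 dpa, a change of -6.39 ± 0.45 between the first and last day (adjusted p = 3.72e-08). GHMYB10 fell earlier, with 982, 763 and 713 at 6 dpa, 183, 412 and 179 at 9 dpa, 44.1, 39.7 and 84.5 at 12 dpa, and 19.0, 9.62 and 0.674 at 25 dpa, a change of -6.11 to the last day. Of 9 MYB and TTG1 probe sets, 5 were lower and 1, MYB6, higher, with a median of -2.57. cdn1-C4, a cadinene synthase of the gossypol pathway, had 9.54, 6.51 and 8.58 at 25 dpa, against 1732, 1347 and 1457 at 6 dpa, a change of -6.91 ± 0.65. It was the only member of its list.

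Among peroxidase and flavonoid genes, 4 of each list were lower at 25 dpa. POX9, a class III peroxidase, had 169, 127 and 101 at 25 dpa, against 2990, 3013 and 3624 at 6 dpa, a change of -4.58 ± 0.20 (adjusted p = 5.25e-10). Of 8 class III peroxidase probe sets, 4 were lower and 1, pod10, was higher, with a median of -1.58. Of 6 flavonoid and phenylpropanoid probe sets, 4 were lower and 1, the chalcone synthase CHS3, was higher, with a median of -1.74; DFR, a dihydroflavonol reductase, had 1253, 1193 and 1210 at 25 dpa, against 6759, 5923 and 6147 at 6 dpa. Between the 2 glutathione S-transferase probe sets, the copy on D11 was lower (-4.26) and the copy on A09 higher (2.20), and the second call was lost without any single 25 dpa array, without 6 dpa replicate 2 and without 6 dpa replicate 3.

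The large falls rested partly on signals near 0 on 25 dpa replicate 3, the lowest array for most of them. Without it the changes were -7.11 for EXPA11A, -6.09 for Pel, -5.50 for GHMYB10, -3.93 for KCS12, -5.03 for Ssh2, -5.21 for CMDR1 and -3.45 for the D11 glutathione S-transferase, and each stayed called; without 25 dpa replicate 1 they were -8.26, -7.69, -6.60, -5.81, -6.61, -6.42 and -4.93. EXPA3D, which fell by 7.05, gave -6.46 without 25 dpa replicate 1 and -7.63 without 25 dpa replicate 2.

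**Figure D4:**
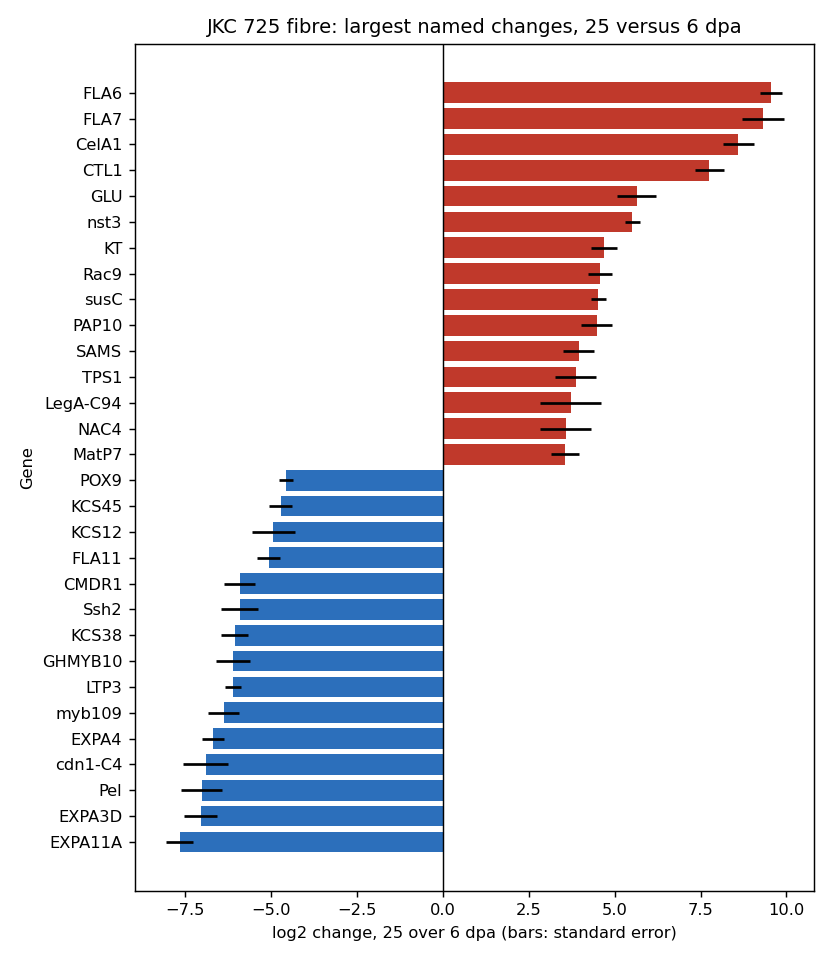
Log2 change of the 15 largest named rises (red) and 15 largest named falls (blue) between 25 and 6 dpa in JKC 725, 1 probe set per gene, with bars for the standard error. Rises reach 9.55 for FLA6 and falls reach -7.67 for EXPA11A.

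Some hormone genes changed in either direction. Of 7 auxin-related probe sets, 3 were higher and 2 lower at 25 dpa, where 24.1% of all tested were higher and 19.7% lower. Aux4 had 629, 1034 and 1392 at 25 dpa, against 122, 133.8 and 96.9 at 6 dpa, a rise of 3.01, while Aux6 fell by 3.61. Of 9 ethylene probe sets, 1 was higher, an ACO1 copy on D07 (1.95), and 1 lower, ACS3 (-3.36), an ACC synthase by its name. Of 4 brassinosteroid and gibberellin probe sets, 2 were lower: DET2, a steroid reductase of brassinosteroid synthesis, had 187, 235 and 201 at 25 dpa, against 1392, 1923 and 2148 at 6 dpa (-3.09), and GID1-4, a gibberellin receptor, fell by 3.92.

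Most tubulin and actin probe sets changed by less than the size set for a call. Of 8 tubulin probe sets, only BTub3 was called, with 18420, 17650 and 17510 at 25 dpa, against 6256, 7331 and 8132 at 6 dpa, a rise of 1.31 that came to 0.59 after quantile normalization. The tubulin median was 0.56 and turned to -0.17 under that scaling, and the median of 4 actin probe sets was 0.20 and turned to -0.33, so neither family has a settled direction. The 4 actin changes lay between -0.10 and 0.53, under the size set for a call; ACT1 had 0.45, with an adjusted p of 0.00756.

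The counts of the smaller lists stand against 24.1% higher and 19.7% lower at 25 dpa over all tested. Among them, 2 of 4 ribosomal protein probe sets were lower (RPL44 at -1.30, RPS16 at -1.18), with a median of -1.05. Of 5 turgor and vacuole probe sets, KT and NIP6.1, an aquaporin by its name, were higher. Of 7 probe sets for reactive oxygen, CAT2 was higher (1.16), and CSD2a (-1.02) and sAPX (-1.42) lower. CAT2 dropped to 0.77 after quantile normalization and CSD2a lost its call without 6 dpa replicate 1, 6 dpa replicate 3 or 25 dpa replicate 3, at changes down to -0.93. Of 4 HD-ZIP and WRKY probe sets, WRKY71 (3.23) and 1 of WRKY15 (2.19) were higher, but WRKY71 lost its call without any single 25 dpa array, without 6 dpa replicate 2 and without 6 dpa replicate 3. Of 9 calcium and small GTPase probe sets, 3 were higher and 2 lower. Of the 7 fibre marker probe sets, 1 was higher (H6L, 1.02, which came to 0.24 after quantile normalization) and 3 lower. The histone sets HIS2B and HIS3 changed by 0.19 and 0.07.

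The first step, 9 versus 6 dpa, brought rises of FLA6, susC and nst3. Of the 289 nameable probe sets, 13 were called higher and 5 lower at 9 dpa, against shares of 4.01% and 1.48% over all tested. FLA6 rose by 6.17 ± 0.32 (adjusted p = 7.62e-08), susC by 2.98 ± 0.22, and a second nst3 probe set by 2.93 ± 0.24, with 602, 280 and 484 at 9 dpa, against 51.6, 50.4 and 57.3 at 6 dpa. Rac13, a small GTPase, had 793, 730 and 604 at 9 dpa, against 164, 124 and 169 at 6 dpa (2.19 ± 0.23). XTH3 rose by 1.99, but this call was lost without 6 dpa replicate 2, 6 dpa replicate 3, 9 dpa replicate 1 or 9 dpa replicate 3.

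In the same step 5 nameable probe sets fell. GAE2 had 303, 621 and 407 at 9 dpa, against 1844, 1936 and 1798 at 6 dpa, a change of -2.12 ± 0.34 (adjusted p = 0.00205). FLA15 fell by 1.72, FLA18 by 1.57, GHMYB10 by 1.75 and GHMYB38 by 1.58. FLA18 lost its call without 6 dpa replicate 2, GHMYB10 without any of 10 single arrays and GHMYB38 without any single 6 dpa array, 9 dpa replicate 1 or 9 dpa replicate 2. The 7 expansin probe sets changed by -0.83 to 1.06 in this step, short of a call.

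At 12 versus 9 dpa CelA1 and CTL1 were first called higher. Their 9 dpa arrays already lay above those of 6 dpa, and CTL1 changed by 1.35 in that step, without a call. Without 12 dpa replicate 2, CTL1 and 1 of the 2 CelA1 probe sets were called higher at 9 versus 6 dpa. Of the nameable probe sets, 9 were called higher and 6 lower at 12 dpa, against 1.38% and 0.77% over all tested. CelA1 rose by 3.82 ± 0.45 (adjusted p = 0.000351), and by 4.59 without 12 dpa replicate 2. CTL1 had 1824, 695 and 2873 at 12 dpa, against 156, 371 and 136 at 9 dpa, a rise of 2.92 ± 0.42 (3.49 without that array), and a second FLA6 probe set rose by 3.17 ± 0.16 (3.12 without it). Rac9 rose by 2.19 (2.38 without it) and AOX1, a mitochondrial alternative oxidase, by 1.63 (1.71 without it). Rac13 rose by 1.16 (1.49 without it) and susC by 1.13 (1.13 without it).

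The falls at 12 dpa were cdn1-C4 (-2.85), GHMYB10 (-2.08), GID1-4 (-1.56), bnlghi6863 (-1.44), the falling LTP3 probe set (-1.14) and SERK1 (a receptor kinase, -1.06). GID1-4 had 114, 149 and 117 at 12 dpa, against 419, 327 and 397 at 9 dpa, with no overlap. Without 12 dpa replicate 2, the changes of GHMYB10 (-1.89, adjusted p = 0.0604) and bnlghi6863 (-1.14, adjusted p = 0.0851) were no longer called, while cdn1-C4 (-2.91), GID1-4 (-1.68), LTP3 (-1.16) and SERK1 (-1.13) still were. GHMYB10 lost its call without any of 9 single arrays, bnlghi6863 without any of 10, cdn1-C4 without 9 dpa replicate 1 or 3 or 12 dpa replicate 1 or 3, and AOX1 without 9 dpa replicate 1 or 3 or 12 dpa replicate 1. Rac13 and LTP3 lost theirs without 9 dpa replicate 3 or 12 dpa replicate 1 or 3, and susC without 9 dpa replicate 2 (0.94) or 12 dpa replicate 1.

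Between 12 and 19 dpa all 7 expansin probe sets fell (6 without 12 dpa replicate 2), while FLA7, FLA15, CelA1 and CTL1 rose. Of the nameable probe sets, 28 were called higher and 56 lower at 19 dpa, against 9.59% and 8.79% over all tested. FLA7 rose by 6.85 ± 0.61 (adjusted p = 1.83e-06), and by 6.21 without 12 dpa replicate 2. GLU had 13370, 13590 and 13670 at 19 dpa, against 387, 67.5 and 417 at 12 dpa, a rise of 5.89 (5.06 without that array). FLA15 rose by 4.05 (3.74 without it), KT by 3.34 (3.17), CelA1 by 3.07 (2.30), CTL1 by 2.90 (2.33) and SAMS by 2.76 (2.10). vicB_At rose by 6.05 (6.37 without it), with 437, 3711 and 205 at 19 dpa, against 3.24, 12.3 and 4.97 at 12 dpa; without 19 dpa replicate 2 the change was 4.84 and not called (adjusted p = 0.0663), and without 19 dpa replicate 3 it was 6.92.

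On the falling side, a second EXPA3D probe set had 181, 46.4 and 70.5 at 19 dpa, against 3357, 3440 and 2409 at 12 dpa, a change of -5.09 ± 0.42 (adjusted p = 8.28e-07). This probe set did not decline before: its means were 1471 at 6 dpa, 2586 at 9 dpa and 3069 at 12 dpa. myb109 fell by 4.91, CMDR1 by 4.55, Pel by 4.51, a second EXPA4 probe set by 4.41, KCS38 by 4.13, EXPA11A by 4.02 and Aux6 by 3.22. Without 12 dpa replicate 2, these 8 changes lay between -5.0 and -2.95 and all stayed called. Of the 17 FLA probe sets, 3 were higher and 9 lower in this step (3 and 8 without that array), and of the 7 in the very long chain fatty acid list, 1 was higher and 4 lower.

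In the last step, 25 versus 19 dpa, CelA1 and CTL1 were not called, and some genes that had fallen before fell further. Of the nameable probe sets, 8 were called higher and 18 lower at 25 dpa, against 1.25% and 3.42% over all tested. CelA1 changed by 0.37 ± 0.45 and CTL1 by 0.59 ± 0.42, neither past the test. The second CelA1 probe set had 601, 557 and 524 at 25 dpa, against 1178, 853.8 and 1603 at 19 dpa, a change of -1.06 ± 0.33 that was not called (adjusted p = 0.0607) but was called lower without 12 dpa replicate 2. EXPA4 had 16.7, 5.51 and 7.47 at 25 dpa, against 132, 43.0 and 84.1 at 19 dpa, a change of -2.62 ± 0.33 (adjusted p = 0.000472). Ssh2 fell by 3.77, KCS12 by 2.53, Aux6 by 2.51, bnlghi6863 by 2.37, a second KCS38 probe set by 2.29, EXPA1 by 2.17 and EXPA11A by 2.16. Ssh2 gave -4.46 without 25 dpa replicate 1 and -2.88 without 25 dpa replicate 3, KCS12 -3.40 and -1.52, that KCS38 probe set -2.80 and -1.67, and EXPA11A -2.75 and -1.60. KCS12 lost its call without 19 dpa replicate 1 or 3 or 25 dpa replicate 2.

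The rises of the last step were of other genes. TPS1 had 175, 325 and 364 at 25 dpa, against 8.90, 12.8 and 11.3 at 19 dpa, a rise of 4.19 ± 0.60 (adjusted p = 0.00109), after signals of 2.53 to 33.0 on all earlier arrays. Lox1, a lipoxygenase, had 11850, 12140 and 14290 at 25 dpa, against 5057, 5011 and 3893 at 19 dpa, a rise of 1.46 ± 0.18 (adjusted p = 0.000488). PAP1 rose by 1.43, Aux2 by 1.64, a second Aux4 probe set by 1.54 and RCA1 by 1.40. The calls of Aux2, that Aux4 probe set and RCA1 were lost without any of 5, 9 and 11 single arrays, in that order, with adjusted p up to 0.131, 0.178 and 0.156.

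Some genes peaked in the middle of the course. Aux6 had 975, 976 and 1505 at 6 dpa, 5849, 3711 and 5762 at 9 dpa, 4601, 7157 and 3595 at 12 dpa, 680, 393 and 534 at 19 dpa, and 138, 89.9 and 54.7 at 25 dpa. It rose by 2.15 in the first step (adjusted p = 0.00164) and fell in both of the last. Rac13 had 164, 124 and 169 at 6 dpa, 793, 730 and 604 at 9 dpa, 2194, 1005 and 1790 at 12 dpa, 1196, 1203 and 1174 at 19 dpa, and 502, 530 and 632 at 25 dpa. It was called higher in the first 2 steps and lower in the last (-1.10, adjusted p = 0.0104), and its 25 dpa arrays all stayed above its 6 dpa arrays.

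The course of JKC 725 was set against 2 other lines to see where it differed, JKC 703, of the class with poorer fibre, and JKC 777, of its own class. The test was of the difference between the changes (an interaction) in a fit of 74 fibre arrays of all 5 lines, over 18052 probe sets, and it compares these lines, not their classes. Against JKC 703, the change between 25 and 6 dpa differed in 202 probe sets (1.12%), 66 with the more positive change in JKC 725 and 136 with the more negative. Against JKC 777 it differed in 5527 (30.6%; 3276 and 2251). For 19 versus 12 dpa the counts were 642 against JKC 703 (3.56%; 336 and 306) and 3809 against JKC 777 (21.1%; 2228 and 1581).

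The splits between directions moved with the scaling. Against JKC 703, quantile normalization gave 560 and 256 for 19 versus 12 dpa, and median centring 642 and 133; for 25 versus 6 dpa median centring gave 37 and 240. Against JKC 777, quantile normalization gave 1774 and 1900 for 19 versus 12 dpa and 2496 and 2580 for 25 versus 6 dpa, and median centring 1495 and 2202, and 1993 and 3317. Without 19 dpa replicate 1 of JKC 725 the count of 642 was 395. The counts of the other steps against JKC 703 were 58 (0.321%) for 9 versus 6 dpa, 79 (0.438%) for 12 versus 9 dpa and 152 (0.842%) for 25 versus 19 dpa. Against JKC 777 they were 1122 (6.22%), 545 (3.02%) and 2326 (12.9%). At 9 dpa, the bioC to bioB ratio was 0.935 to 1.01 in JKC 725 and 2.77 to 3.14 in the other 4 lines; its part in differences that involve 9 dpa was not tested. At 25 dpa this ratio was 0.99 to 1.06 in JKC 725, against 0.979 to 1.14 in JKC 703 and 2.61 to 2.94 in JKC 777. The 3′ to 5′ actin ratio at 25 dpa was 8.23 to 9.09 in JKC 725, against 7.50 to 8.92 in JKC 703 and 5.07 to 6.4 in JKC 777, and at 6 dpa 2.84 to 3.56 in JKC 725, against 2.57 to 3.02 in JKC 703 and 6.59 to 7.73 in JKC 777. Both measures thus split the lines in the same way as the 202 and 5527 differences for 25 versus 6 dpa, and their part in those counts was not tested. At 19 dpa the actin ratio was 4.46 to 9.12 in JKC 725, against 5.61 to 17.1 in JKC 703 and 4.08 to 4.74 in JKC 777.

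CelA1 rose at different days in the 3 lines. Its signals at 12 dpa were 2594, 532 and 2660 in JKC 725, against 7181, 6992 and 4109 in JKC 703 and 36.4, 27.7 and 41.1 in JKC 777. At 19 dpa they were 13790, 12350 and 12820 in JKC 725, against 11710, 13170 and 11950 in JKC 703 and 147, 37.7 and 108 in JKC 777. At 25 dpa all 3 lines had high signals, 15900 to 17230 in JKC 725, against 13770 to 14600 in JKC 703 and 7858 to 15430 in JKC 777. The step of 19 versus 12 dpa was larger in JKC 725 (3.07) than in JKC 703 (1.05), a difference of 2.01 ± 0.66 with an adjusted p of 0.04997. It was 1.25 and not called without 12 dpa replicate 2, and lost in 6 more alternatives.

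The second CelA1 probe set ran in opposite directions, with a change of -2.55 between 25 and 6 dpa in JKC 725, against 7.46 in JKC 777, where its signals were 4721, 4829 and 5997 at 25 dpa and 39.99, 19.1 and 20.0 at 6 dpa. The difference of -10.0 ± 0.97 (adjusted p = 2.026e-12) was -9.45 with a larger offset and -10.3 with none.

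FLA7, GLU and FLA15 rose between 12 and 19 dpa in JKC 725, and their changes there were more positive than in JKC 777. FLA7 had 10680, 10440 and 11370 in JKC 725 at 19 dpa, against 11210, 12360 and 10580 in JKC 703 and 15.4, 47.7 and 3.59 in JKC 777. The change in the step of 19 versus 12 dpa was 6.85 in JKC 725 and 0.33 in JKC 777, a difference of 6.53 ± 1.08 (adjusted p = 3.255e-06), and 5.88 without 12 dpa replicate 2. GLU and FLA15 differed likewise, by 6.28 (5.45 without that array) and 5.39 (5.08). In JKC 703 at 19 dpa, GLU was also at 10500 to 11330 and FLA15 at 2963 to 6969. FLA6 had its rise in another step: it changed by 0.61 at 19 versus 12 dpa in JKC 725, where it was already at 6019 to 8489 on 12 dpa, against 7.24 in JKC 777, where it was at 1.35 to 14.9 on 12 dpa and 884 to 2062 on 19 dpa. That difference was -6.63 ± 0.85, and -6.47 without 12 dpa replicate 2. By 25 dpa each of these genes lay above its 19 dpa arrays in JKC 777 as well. FLA7 was then at 3353, 5563 and 269 there, and GLU at 3737, 7329 and 285. FLA15 was at 3033, 5242 and 1215, and FLA6 at 12270, 12230 and 10010.

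EXPA3D, KCS38, Pel, pox and Aux6 fell in JKC 725, and their changes were more negative there than in JKC 777. EXPA3D had 9.88, 22.1 and 24.5 at 19 dpa in JKC 725, against 734, 801 and 1500 in JKC 777, and at 25 dpa 1.13, 23.2 and 8.41 in JKC 725, against 323, 131 and 754 in JKC 777. Its change between 25 and 6 dpa differed by -7.41 ± 0.69 (adjusted p = 5.892e-13). KCS38 had 208, 109 and 61.1 at 25 dpa in JKC 725, against 6190, 4755 and 14830 in JKC 777, a difference in the change of -6.46 ± 0.43. Pel differed by -4.48 at 19 versus 12 dpa (-4.61 without 12 dpa replicate 2), pox by -6.49 and Aux6 by -9.19 at 25 versus 6 dpa. For each of these, the arrays of the later day did not overlap between JKC 725 and JKC 777. JKC 703 was low at 25 dpa too, at 2.30 to 20.0 for EXPA3D, 46.2 to 70.8 for KCS38 and 7.72 to 22.8 for Pel. There pox was at 190.5 to 232.6 and Aux6 at 24.9 to 53.7. At 6 dpa, pox was at 279 to 709 in JKC 777, against 3787 to 5785 in JKC 725. Aux6 was at 46.9 to 71.4 against 975 to 1505, and EXPA3D at 219 to 275 against 1386 to 1850. Over the course pox (2.68) and Aux6 (5.57) rose in JKC 777.

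Fewer probe sets differed from JKC 703. GID1-4 had 30.1, 28.7 and 22.5 at 19 dpa and 114, 149 and 117 at 12 dpa in JKC 725, against 104, 46.5 and 122 at 19 dpa and 67.3, 42.4 and 66.5 at 12 dpa in JKC 703. The change was -2.06 in JKC 725 and 0.52 in JKC 703, a difference of -2.58 ± 0.34 (adjusted p = 4.618e-06; -2.46 without 12 dpa replicate 2). CCR1, a cinnamoyl-CoA reductase by its name, had 2197, 1443 and 2008 at 19 dpa in JKC 725, against 947, 946 and 262 in JKC 703. Its change from 12 dpa was -0.41 in JKC 725 and -2.62 in JKC 703, a difference of 2.21 ± 0.35 (2.22 without that array). Ssh2 and KCS38 also fell less by 19 dpa in JKC 725, by differences of 2.01 (2.11) and 1.88 (2.02). In JKC 703 at 19 dpa, CCR1, Ssh2 and KCS38 were all lowest on replicate 3, where the 3′ to 5′ actin ratio was 17.1. That ratio was 6.16 and 5.61 on replicates 1 and 2, and the part of replicate 3 was not tested. The pectin gene GAE2 was the only named difference from JKC 703 for 25 versus 6 dpa, with -3.91 in JKC 725 and -2.26 in JKC 703 (-1.65 ± 0.41, adjusted p = 0.01818).

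**Figure D5:**
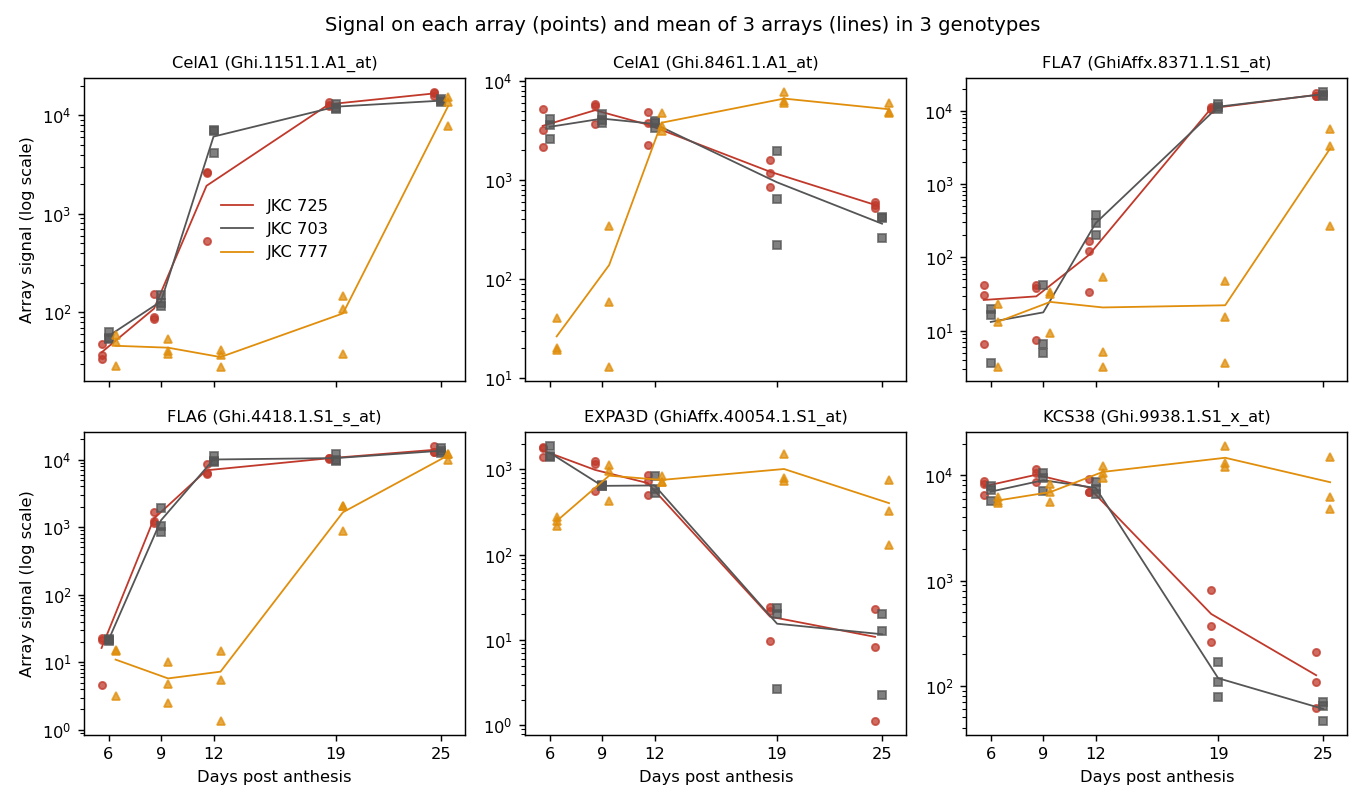
Signal on each array (points) and mean of 3 arrays (lines) at 6, 9, 12, 19 and 25 dpa in JKC 725, JKC 703 and JKC 777, on log axes, for both CelA1 probe sets, FLA7, FLA6, EXPA3D and KCS38. At 19 dpa FLA7 was at 10440 to 11370 in JKC 725, 10580 to 12360 in JKC 703 and 3.59 to 47.7 in JKC 777. At 25 dpa it was at 269 to 5563 in JKC 777.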

How the data were processed

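The authors deposited 1 MAS5 intensity per probe set and array (24132 probe sets), on a linear scale; per the submitters' processing notes the tool was MAS5, and its version is not given in the sources used here. The 2% trimmed mean of each array was 500.11 to 500.17, so the authors had scaled the arrays. From these intensities log2(signal + 4.38) was computed, where 4.38 is the 10th percentile of the table; a change on this scale understates the change of low genes. The 103 control probe sets were left out, and a probe set was tested where the mean of at least 1 of the 5 days reached 40.4, the 40th percentile. limma 3.58.1 (R 4.3.3; lmFit and eBayes with trend) was fitted to the 15 arrays, with Benjamini-Hochberg adjustment over all 17003 tested, and a call needed both an adjusted p below 0.05 and an absolute log2 change of 1 or more. Differences between lines came from the fit of 74 fibre arrays. The scripts were tested on simulated data.

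Names came from the platform annotation and RefSeq (Gossypium_hirsutum_v2.1). Genes named were the largest called changes whose 3 against 3 arrays did not overlap (up to 15 each way for 25 versus 6 dpa, 8 for each step, 5 for the differences, without the overlap condition there) and up to 3 called members of each list with its most abundant one; other members named were chosen after their values were seen. The lists cover cellulose synthases, FLA, expansins, wall enzymes, cytoskeleton, lipids, sucrose synthase, turgor, hormones, oxidative and phenolic enzymes, transcription factors, signalling, ribosomal proteins and cell type markers. Genes, lists and tests were chosen with earlier results of these data known. Where several probe sets share a gene name, they are given apart and told by their values. No sequences were used here.

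Alternatives were quantile normalization, median centring, no or a larger offset, no or a stricter filter, all 89 arrays, array weights, a replicate block and each array left out. Values without an array named in the text, and list counts under the alternatives, were chosen after seeing the data.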

Additional observations from a re-analysis of the deposited data

Results flagged for a closer look

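The results below are those in which the change of JKC 725 over a step differed from the change of another line over the same step, by limma's test of the difference itself. Each difference is the log2 change in JKC 725 minus that in the other line. Against JKC 703, the number of probe sets that differed was 58 for 9 versus 6 dpa (0.321%), 79 for 12 versus 9 dpa (0.438%), 642 for 19 versus 12 dpa (3.56%), 152 for 25 versus 19 dpa (0.842%) and 202 for 25 versus 6 dpa (1.12%). Against JKC 777 it was 1122 (6.22%), 545 (3.02%), 3809 (21.1%), 2326 (12.9%) and 5527 (30.6%) in the same order.

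Among named genes, the step of 19 versus 12 dpa differed from that of JKC 703 by 2.35 for MatP7, 2.21 for CCR1, 2.01 for CelA1, 2.01 for Ssh2, 1.88 for KCS38, -3.71 for GEPH, -2.97 for CPA-FAS-1 (a cyclopropane fatty acid synthase by its name), -2.58 for GID1-4, -1.77 for Lea14-A and -1.70 for Aux2. The change between 25 and 6 dpa differed by -1.65 for GAE2. Of these, CelA1 lost its call under 7 of 13 alternatives, GEPH and Lea14-A under 4 each, Aux2 under 2, and MatP7 and CPA-FAS-1 under 1 each. The arrays left out were of JKC 725 only, so these counts do not show how far single JKC 703 arrays matter. In JKC 703 at 19 dpa, GEPH had 427, 25.0 and 519, against 3.36, 15.8 and 20.1 at 12 dpa. CPA-FAS-1 had 114, 30.35 and 377, against 30.37, 32.65 and 16.4. The highest of each came from 19 dpa replicate 3, where the 3′ to 5′ actin ratio was 17.1. The part of that array was not tested.

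From JKC 777, the step of 19 versus 12 dpa differed by 6.53 for FLA7, 6.45 for vicB_At, 6.28 for GLU, 5.39 for FLA15, 4.74 for CBP2, -6.63 for FLA6, -5.42 for the second EXPA3D probe set, -5.23 for Aux6, -4.56 for KCS38 and -4.48 for Pel. The change between 25 and 6 dpa differed by 4.97 for CPA-FAS-2, 4.21 for GLU, 4.12 for TPS1, 3.96 for WRKY71, 3.55 for ERF9, -10 for the second CelA1 probe set, -9.19 for Aux6, -7.41 for the first EXPA3D probe set, -6.49 for pox and -6.46 for KCS38. WRKY71 lost its call without 6 dpa replicate 3 of JKC 725 (adjusted p = 0.06228). ERF9 stayed under 40.4, the mean a day had to reach, within JKC 725 and was not tested there. It had 24.0, 22.6 and 19.7 at 25 dpa in JKC 725, against 1.43, 1.48 and 2.48 at 6 dpa. In JKC 777 it had 17.9, 10.6 and 0.638, against 25.0, 39.2 and 22.6. With signals this low the size of its difference rests on the offset: it was 1.86 with a larger offset and 6.17 with none. Groups of 3 arrays are too small for a test of single outlying arrays.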

How the results depend on the processing

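Of 160 named changes within JKC 725, 124 kept their direction and call under every alternative, 29 lost a call under at least 1, and 6 that were not called in the reported fit changed sign. The changes of sign were, after quantile normalization, -0.609 for XTH1, -0.105 for TUA10, -0.383 for ACT1, -0.0241 for the LTP3 probe set that did not fall, -0.691 for AnnGh1 and -0.0102 for HIS2B; after median centring, -0.0597 for XTH1 and -0.141 for AnnGh1; and with array weights, -0.00578 for AnnGh1. With 1 array left out, XTH1 ranged between -0.326 and 0.615 and AnnGh1 between -0.0727 and 0.0887. The cause of these shifts was not tested.

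Counts moved more. A stricter filter, which tests fewer probe sets, gave 590 calls for 9 versus 6 dpa, 4782 for 25 versus 6 dpa, 5544 in the F test and 36 differences from JKC 703 for 9 versus 6 dpa. The fit of all 89 arrays gave 1929 (9 versus 6 dpa), 562 (12 versus 9 dpa) and 1230 (25 versus 19 dpa), and array weights gave 2407, 1337 and 1732. For 9 versus 6 dpa, quantile normalization gave 24 differences from JKC 703 and 731 from JKC 777, and no offset gave 97 from JKC 703. With 1 array left out in turn, the counts ranged from 450 to 1686 (9 versus 6 dpa), 220 to 713 (12 versus 9 dpa), 2634 to 3913 (19 versus 12 dpa), 510 to 1014 (25 versus 19 dpa) and 7048 to 7639 (25 versus 6 dpa). The differences from JKC 703 ranged from 9 to 130, 34 to 396, 395 to 917, 76 to 343 and 143 to 230 in the same order, and those from JKC 777 from 767 to 1191, 368 to 1088, 3274 to 4041, 2073 to 2555 and 5104 to 5550. The JKC 725 arrays whose omission moved a difference count by over 1.5 times were, against JKC 703, 6 dpa replicates 1 (15), 2 (33) and 3 (130) and 9 dpa replicates 1 (98), 2 (38) and 3 (9) for 9 versus 6 dpa; 9 dpa replicates 1 (34), 2 (297) and 3 (43) and 12 dpa replicate 2 (396) for 12 versus 9 dpa; 19 dpa replicate 1 (395) for 19 versus 12 dpa; and 19 dpa replicates 1 (89) and 3 (97) and 25 dpa replicates 1 (343) and 3 (76) for 25 versus 19 dpa. Against JKC 777 it was 12 dpa replicate 2 (1088) for 12 versus 9 dpa. The cause of these movements was not tested.

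Replicate numbers were not used to pair the arrays in the reported fit. Of 30 pairs of same-numbered arrays, 6 had a correlation of deviations over 0.1 (range -0.467 to 0.42). Of 15 arrays, 8 correlated best with one of their own number. No chance level was set for these values, so they do not decide whether the arrays were paired. With the replicate block the counts were 858, 331, 3069, 729 and 7429 in the order of the comparisons above, 64, 80, 627, 152 and 201 for the differences from JKC 703, and 1120, 553, 3804, 2331 and 5538 for those from JKC 777. The block ended the calls of GHMYB10 (9 versus 6 and 12 versus 9 dpa), bnlghi6863 (12 versus 9 dpa) and RCA1 (25 versus 19 dpa), and no other named call within JKC 725. Signals near 0 limit the largest falls and the storage protein changes.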

Other observations

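Most probe sets have no readable gene name in the annotation used here, and among them are the largest changes of the course on the log2 scale used. The probe set with the largest rise between 25 and 6 dpa of all those tested had signals of 32690, 31360 and 32730 at 25 dpa, against 0.7853, 0.8196 and 11.92 at 6 dpa, a change of 12.05 ± 0.50 on the log2 scale (standard error; limma, adjusted p = 2.52e-10). Its means were 4.508 at 6 dpa, 9.39 at 9 dpa, 5205 at 12 dpa and 21190 at 19 dpa, so that it came up in the step to 12 dpa (8.54, and 9.07 without 12 dpa replicate 2). The probe set with the largest fall of all those tested also had no readable name, with signals of 2.362, 1.083 and 2.279 at 25 dpa, against 3012, 3173 and 3658 at 6 dpa, a change of -9.03 ± 0.41 (adjusted p = 6.47e-10), with means of 1208 at 9 dpa, 326 at 12 dpa and 5.868 at 19 dpa. The groups did not overlap in either comparison; with signals this near 0 on one side, the size of both changes rests on the offset.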
